A study of Mus musculus with 2 samples.

Results

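The T cell receptor loci of the mouse were examined for TCF1 binding in immature γδ T cells. The loci are Tcrg, which encodes the γ chain, Tcra and Tcrd, which encode the α and δ chains and share 1 stretch of chromosome 14, and Tcrb, which encodes the β chain. Members were the listed TCF1 intervals that overlapped 3 fixed windows of the mm9 genome, fixed by position alone, though the loci were picked with earlier results of these data known. The windows ran from 19250001 to 19470000 on chromosome 13 for Tcrg, from 53000001 to 54900000 on chromosome 14 for Tcra and Tcrd, and from 40820001 to 41540000 on chromosome 6 for Tcrb. They held 114 of the 104683 intervals in the list. Of these, 5 lay in the Tcrg window, 83 in the Tcra/Tcrd window and 26 in the Tcrb window, and 0 crossed a window edge.

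The study made 1 TCF1 ChIP library and 1 input library from sorted CD24+ γδ thymocytes with little or no CFP. Both libraries share the genotype: C57BL/6 mice without the TCRβ gene (TCRbeta KO), with a Sox13 transgene (Sox13tg+) and with an ECFP knock-in at 1 Sox13 allele (Sox13 ECFP KI/+). The labels give neither the age of the mice, the promoter of the transgene, nor which part of Tcrb the knockout removes. Input values were not analysed here, there was no replicate, and the number of reads is unknown, so nothing was tested between samples.

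As background, T cell receptor genes are assembled in the thymus by V(D)J recombination, which joins a V segment, in Tcrb and Tcrd also D segments, and a J segment in front of a constant region. Each locus has enhancers near its constant regions, and TCF1, the HMG-box factor encoded by Tcf7, is known to bind the enhancer of Tcra. γδ T cells carry receptors made from Tcrg and Tcrd, whereas αβ T cells use Tcra and Tcrb. In the RefSeq gene table at hand, which is of GRCm38 and therefore gives names and order only, Tcrg holds 7 V segments, 4 J segments and 4 constant regions in alternating groups, from Trgv7 and its neighbours with Trgc1 at one end to Trgv1 with Trgc4 at the other. Tcra holds 130 V segments (Trav), then 60 J segments (Traj) and 1 constant region, Trac, and is followed by Dad1, a subunit of the oligosaccharyltransferase. Tcrd lies inside it, with 2 D segments, 2 J segments and the constant region Trdc between the Trav and the Traj segments. Tcrb holds 35 V segments, a group of trypsinogen genes such as Try4, Prss1 and Prss2, and then 2 sets of D, J and C segments (Trbc1 and Trbc2), with the last V segment, Trbv31, and the ephrin receptor gene Ephb6 behind them. In the table, the entries for Tcrg, Tcra and Tcrb are 178.4, 1796 and 667.1 kb long. The windows exceed them by 41.56, 103.8 and 52.92 kb, so a member near a window edge may lie outside the locus. No interval was assigned to a segment or a neighbouring gene, because no annotation of mm9 was used here.

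TCF1 intervals in Tcra/Tcrd and Tcrb were low in height, while the densities of the windows did not differ from each other beyond counting error. There were 22.7 intervals per Mb in Tcrg, 43.7 in Tcra/Tcrd and 36.1 in Tcrb, against 42.0 over all autosomes. The density ratio of Tcrg to Tcra/Tcrd was 0.520 (95% interval 0.165 to 1.26), and that of Tcrg to Tcrb was 0.629 (0.189 to 1.67). Height, the deposited score divided by the width in units of 50 bp, had its median at 15.04 in Tcra/Tcrd (95% interval of the median 13.4 to 20.2, n = 83 intervals) and at 5.58 in Tcrb (3.50 to 11.2, n = 26). Tcrg had a median of 26.3 over 5 intervals, too few for a 95% interval of this kind. The median was 34.4 over all autosomes (34.2 to 34.5) and 34.0 over the whole list. Height does not tell apart fewer cells with TCF1 at a site from less TCF1 per cell. Confidence intervals are at the 95% level, except that those of ratios of medians are wider than that level needs. Those of counts, densities and shares reflect counting error alone, and those of medians the spread of heights among the intervals of a region. All treat neighbouring intervals in the list as independent of each other, which they need not be.

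**Figure D1:**
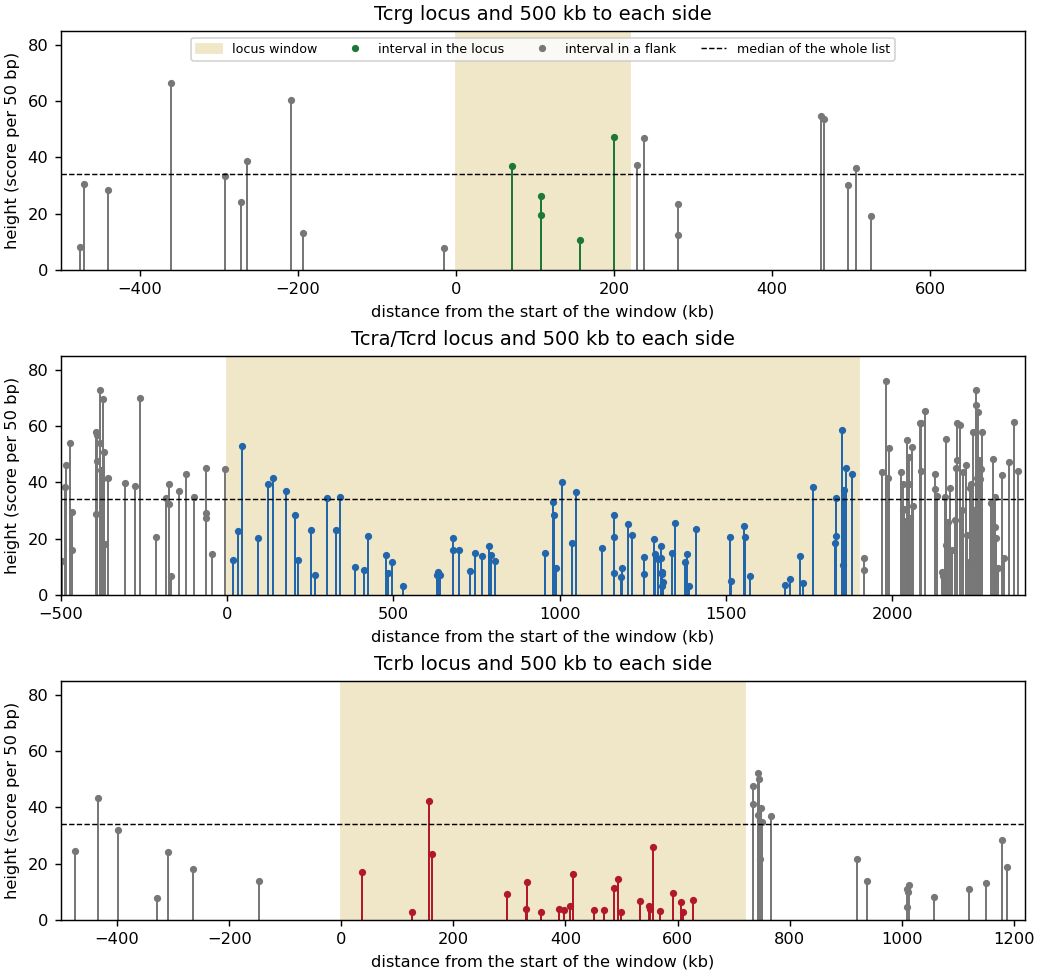
Height of each listed TCF1 interval (score per 50 bp, vertical axis) against its distance from the start of the locus window in kb, for Tcrg, Tcra/Tcrd and Tcrb with 500 kb to each side. Coloured points are the 5, 83 and 26 intervals inside the shaded windows, grey points are those in the flanks, and the dashed line is the median of the whole list, 34.0. In Tcra/Tcrd most points between the 2 ends lie below the line, and in Tcrb 1 of 26 lies above it.

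Tcrg carried few intervals and none of extreme height. The first, from 19320551 to 19320750, reached a height of 37.0 with a score of 148. A pair followed, from 19357001 to 19357250 (score 131.5, height 26.3) and from 19357351 to 19357700 (score 136, height 19.4). The widest, 450 bp from 19406851 to 19407300, was the lowest, with a score of 96.0 and a height of 10.7. The highest lay nearest the upper end of the window, from 19450201 to 19450350, with a score of 142 and a height of 47.3, at percentile 77.2 of the whole list. The scores therefore lay close together, while the heights spanned the range from percentile 10.2 to 77.2. The first 70.55 kb of the window were empty, and the empty stretch reached 86.35 kb, back to an interval of height 7.75 outside the window, from 19234051 to 19234200. Gaps as long made up 6.19% of all gaps between neighbours on autosomes.

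The measured densities of Tcrg and its flanks were close, though the intervals were too few to show that they were equal. The density in Tcrg was 22.7 intervals per Mb (7.38 to 53.0), against 20 in the 500 kb towards lower coordinates and 18.0 in the 500 kb towards higher coordinates. The ratio of Tcrg to both flanks was 1.196 (0.349 to 3.31), an interval that holds large differences in both directions. The median height of 26.3 in Tcrg stood against 29.5 and 36.2 in the lower and the upper flank and 30.2 over the rest of chromosome 13. Of autosomal tiles of the same 220 kb, 49.6% held at most as many intervals, and of those with 5 or more, 27.8% had a median height as low or lower. With 5 intervals, no difference between Tcrg and its surroundings was detectable in these measures.

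Tcra/Tcrd held 43.7 intervals per Mb (34.8 to 54.2), against 30.8 over the rest of chromosome 14, a ratio of 1.42 (1.13 to 1.76). Its flanks were denser still. There were 68.0 per Mb in the lower flank and 140 in the upper flank, and the ratio of the locus to both flanks was 0.420 (0.311 to 0.566). The intervals of the locus were lower than those around it. The median height of 15.04 in the locus was 0.380 times that of the pooled flanks, 39.6 (interval of the ratio 0.306 to 0.573), and the flanks were alike, at 39.5 and 40.3. Against the rest of chromosome 14, with a median of 30.9, the ratio was 0.486 (0.423 to 0.668). Intervals covered 1.09% of the locus, against 1.98% of the lower flank and 4.13% of the upper flank.

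Along Tcra/Tcrd the heights were lowest between the ends of the window. In stretches of 200 kb counted from the upper end, the median was 34.6 in the last stretch (11 intervals) and 6.50 in the one before it (7 intervals). Going on towards lower coordinates it was 12.5, 14.6, 28.4, 13.9, 8.0, 12.8 and 31.4, with 6 to 13 intervals each, and 21.5 over 4 intervals in the remaining 100 kb. In the last stretch the heights ran from 4.25 to 58.8. The medians therefore fell and rose again more than once along the window, and the number of intervals per stretch was too small to place a border. For the last 200 kb against all that came before, the median heights were 34.6 and 14.7, and the interval of their ratio of 2.35 ran from 0.581 to 3.64 and included 1. The densities of 55.0 and 42.4 per Mb did not differ beyond counting error (ratio 1.30, 0.621 to 2.46). Right at the upper end of the window, the heights were not below those outside. The last 50 kb inside held 4 intervals with a median height of 40.25, and the first 50 kb outside held 2 with a median of 10.9.

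The highest member of all 3 windows lay in this last stretch. It ran from 54848701 to 54849000 on chromosome 14 with a score of 353 and a height of 58.8, at percentile 91.7 of the list. The next 2 by height near that end were from 54862151 to 54862500 (score 315.5, height 45.1) and from 54878751 to 54878900 (score 129.25, height 43.1), which was also the last member of the window, 21.1 kb from its end. In the order of GRCm38 this is the end with the Traj segments, Trac and Dad1. The remaining 2 among the 5 highest lay near the start of the window, at the end with the first Trav segments. The interval from 53043901 to 53044000 had a height of 52.9. It was only 100 bp wide, and its score of 105.75 stood at percentile 40.0 of all scores. The interval from 53136801 to 53137100 had a height of 41.8 and a score of 250.5, at percentile 75.2 of all scores. By score, the first place went to the widest interval, 950 bp from 54555151 to 54556100, with a score of 462.5 but a height of only 24.3. The interval from 54005401 to 54005900 followed, with a score of 402.25 and a height of 40.2.

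Neighbouring members in Tcra/Tcrd lay further apart at the median than those on autosomes. The median distance between neighbours was 14.2 kb, against 8.15 kb over autosomes. It was longer still in Tcrb, at 15.3 kb, and in Tcrg, at 39.6 kb. No confidence interval was computed for these distances. Joined when at most 10 kb apart, the 83 intervals formed 52 groups, of which 35 held 1 interval. The same grouping was not made over the autosomes, so these counts have no background. The largest group held 9, from 54283301 to 54311150, with a median height of 12.7. The longest empty stretch, from 53805401 to 53956550, measured 151.15 kb, and 2.08% of autosomal gaps were as long. It lay between the intervals from 53805151 to 53805400 (height 11.95) and from 53956551 to 53956900 (height 15.04). The first member of the window, from 53015901 to 53016000, reached a height of 12.4 with a score of 24.75. Of the 130 Trav names in the gene table, 74 carry the letter d or n, which marks copies within the amplified V array of this strain. Whether reads that match several copies were kept is not given in the sources used here, and the number of copies of each stretch in the sorted cells was not measured.

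Tcrb held the lowest intervals of the 3 windows, at a density close to that of its chromosome. There were 36.1 per Mb (23.6 to 52.9), against 34.2 over the rest of chromosome 6 (ratio 1.06, 0.689 to 1.55) and 27.0 in both flanks (ratio 1.34, 0.7499 to 2.38). The median height of 5.58 was 0.174 times that of the rest of chromosome 6, 32.0 (interval of the ratio 0.108 to 0.358), and 0.256 times that of the flanks, 21.8 (0.0946 to 0.865). Against the lower flank alone, with its 7 intervals, the density ratio was 2.58 (1.09 to 7.04), which excluded 1, and the height ratio was 0.233 (0.0810 to 1.45), which included 1. Against the upper flank alone the density ratio was 0.903 (0.485 to 1.71) and the height ratio 0.258 (0.0933 to 0.895). The median score was 14.5, against 128 in the flanks. Many of the intervals were close to the least that the list holds. The lowest score in the list was 5, and 11 of the 26 intervals in Tcrb had a score below 10 (42.3%), against 1.57% of the whole list. Without those below 10 the ratio of median heights to the flanks was 0.513 (0.177 to 1.32), which included 1.

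A small number of Tcrb intervals stood above the rest. The highest, from 40976151 to 40976350, reached a height of 42.2 with a score of 168.75, and was the 1 member of the window above the median of the list. Close to it, the interval from 40980901 to 40981150 reached 23.5 with a score of 117.5. The highest score, 234, belonged to the interval from 41375201 to 41375650, with a height of 26.0. The first member, from 40856901 to 40857350, had a height of 17.0, and the interval from 41233301 to 41233600 had 16.2. All other members were lower, at 2.75 to 14.5. The longest empty stretch inside the window, 134.2 kb from 40981151 to 41115350, followed that close pair, and 2.75% of autosomal gaps were as long. Beyond it lay the interval from 41115351 to 41115600, with a height of 9.1.

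In Tcrb the stretch of 200 kb with the lowest median ran from 41140001 to 41340000, with 3.75 over 12 intervals. The last 200 kb had a median of 6.17 over 9 intervals and the part before them 5.0 over 17. The interval of the height ratio (1.23, 0.207 to 2.77) included 1, and so did that of the density ratio (1.38, 0.541 to 3.26). The last member, from 41447651 to 41447750, was low, at a height of 7.0 and a score of 14.0. After it the window was empty for 92.25 kb up to its end. In the order of GRCm38 this is the end with the D, J and C segments of Tcrb. The next interval began at 41554601, beyond the window, and the whole empty stretch measured 106.85 kb, a length that 4.33% of autosomal gaps reached. An empty stretch of sequence that the knockout removed and one of sequence without detectable TCF1 cannot be told apart here.

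The upper end of the Tcrb window is a fixed coordinate that need not be the end of the locus. The last 50 kb inside the window held 0 intervals, and the first 50 kb outside it held 9, with heights from 21.5 to 52.4 and a median of 39.8. On the other side the neighbourhood was empty. The nearest interval towards lower coordinates lay 147.05 kb outside the window, with a height of 13.7, and the gap of 183.95 kb to the first member was of a length that 1.3% of autosomal gaps reached. The flanks of Tcrb were therefore unequal in count, with 7 intervals in the lower and 20 in the upper one. Their median heights of 24.0 (7.7 to 43.2) and 21.7 (12.5 to 37.5) had overlapping confidence intervals.

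**Figure D2:**
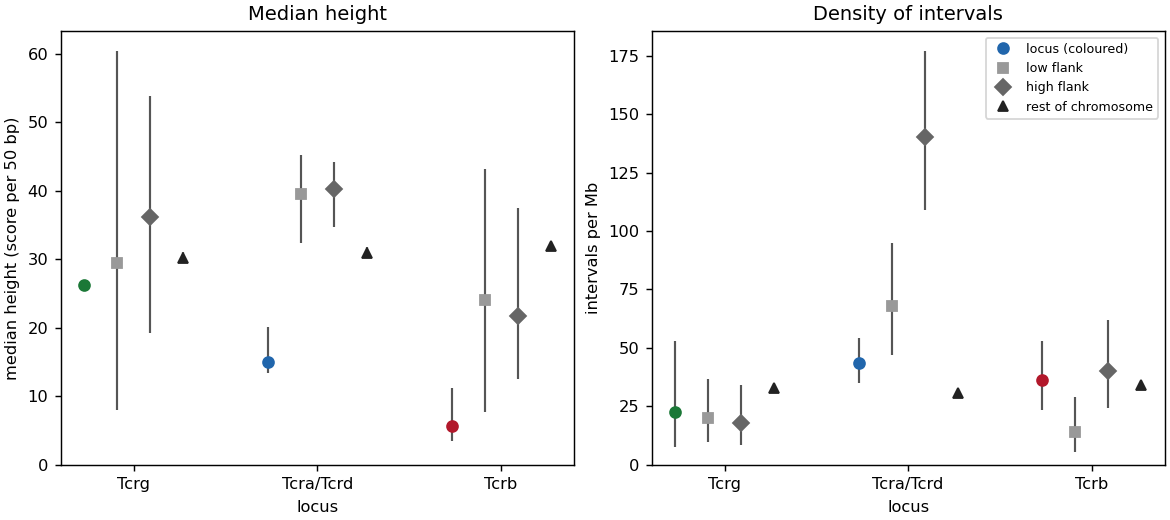
Median height (score per 50 bp, left) and density of intervals (per Mb, right) for each locus window, the 500 kb towards lower and towards higher coordinates, and the rest of its chromosome. Vertical lines are 95% intervals (order statistics for medians, exact Poisson for densities), and Tcrg has none for its median because of its 5 intervals. The medians of 15.04 in Tcra/Tcrd and 5.58 in Tcrb lie below those of both flanks and of the chromosome, while the densities do not share this order.

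The low heights were read against the whole list by 2 limits. A height above 57.0 marked the upper part of the list, which held 9.96% of all intervals, and a height below 10.5 marked the lower part, which also held 9.96%. In the upper part were 0 of 5 intervals of Tcrg, 1 of 83 of Tcra/Tcrd (1.2%, exact Clopper-Pearson interval 0.0305 to 6.53%) and 0 of 26 of Tcrb (upper bound 13.2%). In the lower part were 0 of 5 of Tcrg, 24 of 83 of Tcra/Tcrd (28.9%, 19.5 to 39.9%) and 18 of 26 of Tcrb (69.2%, 48.2 to 85.7%). At the very bottom, at heights of at most 3.75, the list held 1.08% of its intervals. Tcrb had 11 of its 26 there (42.3%, 23.4 to 63.1%), Tcra/Tcrd 4 of 83 (4.82%, 1.33 to 11.9%) and Tcrg 0 of 5. Both Tcra/Tcrd and Tcrb thus held fewer high and more low intervals than the list as a whole, except that for the upper part the bound in Tcrb reached past the share in the list. The flanks of Tcra/Tcrd had 15.4% of 104 intervals in the upper part, and 6.73% in the lower part. The flanks of Tcrb, like Tcrb itself, had none in the upper part (0 of 27, upper bound 12.8%). In the lower part they had 4 of 27 (14.8%, 4.19 to 33.7%). For Tcrb and for its flanks the upper bound lay above the 9.96% of the list. A lack of high intervals was thus not shown in either.

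**Figure D3:**
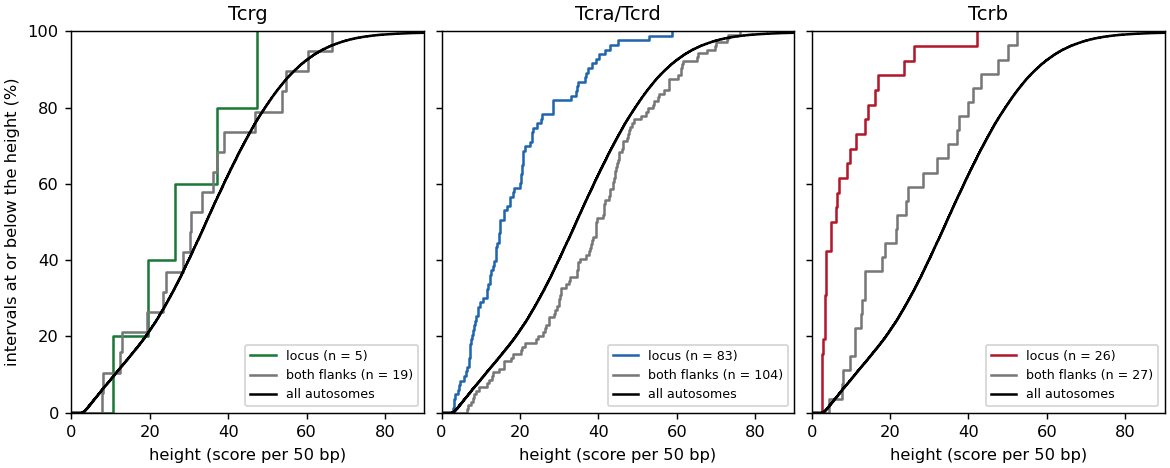
Cumulative share of intervals (per cent, vertical axis) at or below each height (score per 50 bp, horizontal axis) in each locus window, its 2 flanks together and all autosomes. The curves of Tcra/Tcrd and Tcrb rise earlier than those of their flanks and of the autosomes, with medians of 15.04 and 5.58 against 34.4 on the autosomes, while the 5 intervals of Tcrg run close to theirs.

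The heights in Tcra/Tcrd and Tcrb were below those of the autosomes at equal width too. Among intervals of 100 bp, the narrowest width common in the list, the median height was 6.06 in Tcra/Tcrd (12 intervals) and 3.50 in Tcrb (12 intervals), against 25.25 on autosomes (16336 intervals). At 200 bp it was 16.5 in Tcra/Tcrd (12) and 10.4 in Tcrb (4), against 32.75 on autosomes. At 300 bp it was 23.2 in Tcra/Tcrd (13) and 14.9 in Tcrb (2), against 39.3. Tcrb did hold more of the narrow intervals, with 46.2% at 100 bp against 16.2% of the whole list, whereas Tcra/Tcrd had 14.5%. The 2 loci also differed from each other. The median height of Tcra/Tcrd was 2.69 times that of Tcrb (interval 1.199 to 5.76), while their densities did not differ beyond counting error (ratio 1.21, 0.771 to 1.96).

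The loci were also set beside the autosomes in tiles of equal length. Autosomes were cut into tiles as long as each window, from the first base on, with stretches without intervals included. Tiles that overlap the loci themselves were not taken out. Of 1291 tiles of 1900 kb, 71.6% held at most as many intervals as Tcra/Tcrd, and of 3424 tiles of 720 kb, 65% held at most as many as Tcrb. The median height of Tcra/Tcrd, 15.04, was matched or undercut in 8.75% of the 1268 tiles with 5 or more intervals. That of Tcrb, 5.58, was matched or undercut in 0.336%, or 11 of 3272. With tiles of chromosome 14 alone the share for Tcra/Tcrd was 18.75%, and without scores below 10 the share for Tcrb was 3.598%. Tiles with few intervals tended to be low, so tiles with 0.75 to 1.33 times the count of the locus were also taken alone. Among these, 1 of 273 was as low as Tcra/Tcrd, where the median of the tiles was 33.7. For Tcrb it was 0 of 787, with a median of 31.5, and for Tcrg 927 of 1754, with a median of 25.3.

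**Figure D4:**
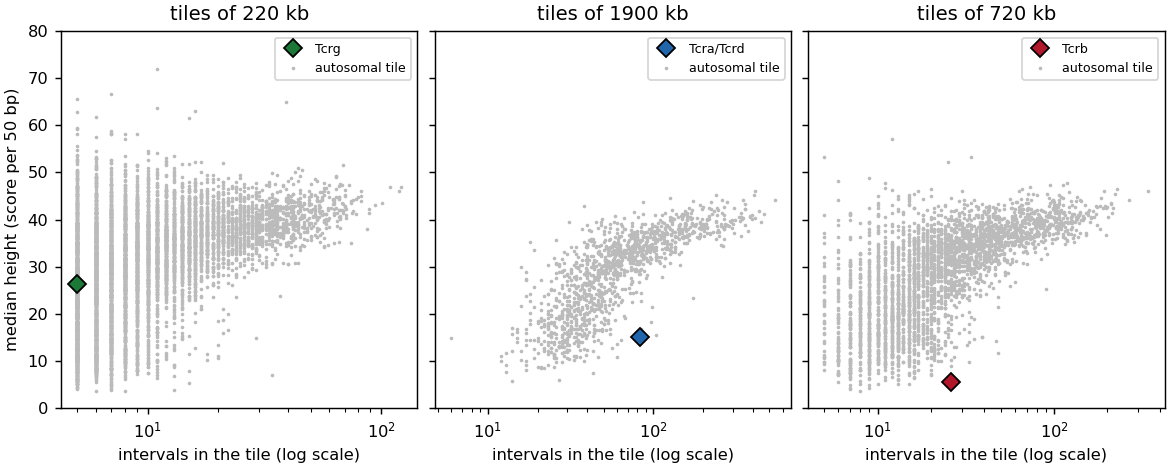
Median height (score per 50 bp, vertical axis) against the number of intervals (horizontal axis, log scale) in autosomal tiles as long as each window, with 5 or more intervals; 1 tile of 220 kb above 80 lies off the axis. Diamonds are the loci. Tcra/Tcrd (83 intervals, median 15.04) and Tcrb (26 intervals, median 5.58) lie at the lower edge of the tiles with like counts, and Tcrg (5 intervals, median 26.3) lies within them.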

How the data were processed

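TCF1 ChIP was measured in 1 library of sorted γδ thymocytes. The authors deposited a list of intervals with a score for each. The submitters' processing notes name mm9 as the build. Not given in the sources used here: what the score means, how reads were aligned, how peaks were called, with what cut-off, and whether the input entered. Depth is unknown. Deposited scores lay on steps of 0.25 within a relative tolerance of 1e-06 and were set to the nearest step. Ends were read as inclusive and positions counted from 1. Height was the score divided by the width, times 50 bp.

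Any overlap with a window made an interval a member. Flanks were 500 kb. The members and windows, and the tiles, limits and stretches, were chosen with earlier results of these data known. Tile medians, tiles of like count, the lower 10% and lowest 1% by height and equal-width comparisons were added after the values were seen. The text names the 5 highest intervals by height and the 3 highest by score in each window, the first, last and widest, and those beside the longest gap. Intervals are exact Poisson, exact conditional (ratios of densities), Clopper-Pearson or order-statistic. The interval of a ratio of medians combines the outer bounds of both medians. It is conservative, so one that includes 1 does not show equal heights. The ratios of densities and of median heights were checked on simulated data with far more intervals than the windows and flanks held. These were placed at random and independently of each other, and interval coverage was checked for density ratios alone. The check therefore does not reach the small counts and uneven spacing of the data, or the interval of a ratio of medians. Motifs and sequences were not analysed. The work used scipy 1.17.1, pandas 2.3.3, numpy 2.4.6 and matplotlib 3.10.9 under Python 3.11.15.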

Additional observations from a re-analysis of the deposited data

How the results depend on the processing

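Among 66 values from other settings, 18 moved away from the reported value, and 48 were close to it. In the upper 50% by score, 2 ratios crossed 1 whose counting interval held 1 or that had none: the density ratio of Tcrb (main value 1.34) and the height ratio of Tcrg (0.861 became 1.02). No other ratio crossed 1. Close meant within 1.5 times for counts and for values with no interval, and otherwise inside the 95% interval. With only the upper 50% of the list by score, the counts of 5, 83 and 26 in Tcrg, Tcra/Tcrd and Tcrb became 3, 20 and 3, and with the upper 10% 0, 1 and 0. In the upper 50%, the density ratio of Tcra/Tcrd to its flanks became 0.170, that of Tcrb 0.321, and the ratio of median heights of Tcra/Tcrd 0.729. The height ratio of Tcrb to its flanks, 0.256 with a wide interval, counts as close but moved by over 1.5 times in 4 settings. It was 0.693 in the upper 50% (3 intervals, no interval of the ratio), 0.113 with the score in place of height, 0.150 with flanks of 250 kb and 0.513 without scores below 10. The covered share became 0.397% in Tcra/Tcrd and 0.153% in Tcrb. A choice by score removes low intervals by construction. Flanks of 250 kb gave a density ratio of 0.575 for Tcra/Tcrd. With the lower limit at 25% of the list, 69.9% of Tcra/Tcrd and 88.5% of Tcrb fell below it, a wider limit by construction. The share of tiles as low as the locus became 34.6% for Tcrg and 18.8% for Tcra/Tcrd with tiles of the same chromosome, and 25.3% for Tcrg and 3.598% for Tcrb without scores below 10. The cause of these shifts was not tested. Values for tiles, the lower part by height and scores below 10 were added after the data were seen. No paired analysis was possible because the ChIP was a single library. Assignment to segments and motifs was not run, since no annotation or sequence of mm9 was used here. Depth is unknown, so a stretch with no interval may hold TCF1 below the unknown threshold of the list.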
